A study of Mus musculus with 2 samples.

Results

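The genes of the renin-angiotensin system within the kidney were examined: Ren1, Agt, Ace, Enpep, Agtr1a, Agtr1b, Agtr2, Mas1 and Atp6ap2. They were found by symbol in the GENCODE mouse annotation and are 9 of the 43346 gene rows of the expression tables, and each had a row in both libraries. The material was kidney from an adult female mouse of the inbred strain C57BL/6J, aged 10 weeks. A single tissue sample gave 2 libraries of polyadenylated RNA, labelled technical replicates 1 and 2 and called library 1 and library 2 here, and no treatment, allele or second group is named in the labels. Per the labels, technical replicate 2 was added after the study's original publication. With 2 libraries of 1 sample, every SD and every test describes these libraries and may be technical throughout, and differences between animals were not measured.

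The renin-angiotensin system controls blood pressure and salt balance through a chain of peptide cuts. Renin, an aspartyl protease released by juxtaglomerular cells at the afferent arteriole, cuts angiotensinogen to angiotensin I, and angiotensin-converting enzyme (Ace) trims that to angiotensin II, which acts mainly through the AT1 receptor. In the kidney the proximal tubule carries several of these proteins, including brush border peptidases that make and degrade angiotensins. Rodents have a pair of AT1 receptor genes, Agtr1a and Agtr1b, where humans have a single gene.

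The library ratios described below moved with base composition, so exons of the genes concerned are shown first, 5′ to 3′ on the coding strand of mm10, with each G and C in capitals. Ace encodes a somatic enzyme with a pair of catalytic domains and, from a promoter inside the gene, a shorter germinal enzyme of maturing sperm with a single domain. The 3 Ace stretches below are the coding exon of highest GC content found only in the somatic transcript (exon 1, chr11:105967982-105968245, 264 bases, 67.0% GC), the exon of lowest GC content that both forms share (exon 16 of the somatic transcript, chr11:105979170-105979313, 144 bases, 45.8% GC) and the first exon of the germinal transcript (chr11:105975208-105975403, 196 bases, 56.1% GC).
Ace somatic exon 1: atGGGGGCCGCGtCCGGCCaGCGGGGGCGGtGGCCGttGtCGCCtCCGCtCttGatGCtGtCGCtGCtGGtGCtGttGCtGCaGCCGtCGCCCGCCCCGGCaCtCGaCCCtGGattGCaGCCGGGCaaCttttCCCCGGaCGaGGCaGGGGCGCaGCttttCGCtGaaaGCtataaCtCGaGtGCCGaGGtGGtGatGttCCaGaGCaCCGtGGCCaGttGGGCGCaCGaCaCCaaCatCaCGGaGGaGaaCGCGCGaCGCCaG
Ace shared exon 16: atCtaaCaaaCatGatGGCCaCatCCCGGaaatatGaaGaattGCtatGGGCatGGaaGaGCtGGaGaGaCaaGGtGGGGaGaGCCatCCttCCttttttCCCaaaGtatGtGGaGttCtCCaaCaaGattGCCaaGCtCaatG
Ace germinal first exon: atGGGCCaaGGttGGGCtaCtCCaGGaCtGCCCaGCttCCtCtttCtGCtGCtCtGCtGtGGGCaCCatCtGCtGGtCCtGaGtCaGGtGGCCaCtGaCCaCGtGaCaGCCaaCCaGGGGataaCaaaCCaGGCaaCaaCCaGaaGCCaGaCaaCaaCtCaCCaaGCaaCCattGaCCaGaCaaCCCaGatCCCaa

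Ren1 and Atp6ap2 were called in opposite directions after TMM scaling, though Atp6ap2 was not called with the GC trend removed. Over 300-base windows the leading Ren1 transcript had 52.7 to 57.7% GC and that of Atp6ap2 29.0 to 55.3%, ranges that overlap, and the exons shown are the extremes of each gene. Exon 3 of Ren1, which encodes a catalytic aspartate of renin, is its coding exon of highest GC content (chr1:133354802-133354925, 124 bases, 58.1% GC). Exon 9 of Atp6ap2, which encodes the membrane-spanning end of the protein, is its coding exon of lowest GC content (chrX:12615682-12615870, 189 bases, 37.6% GC).
Ren1 exon 3: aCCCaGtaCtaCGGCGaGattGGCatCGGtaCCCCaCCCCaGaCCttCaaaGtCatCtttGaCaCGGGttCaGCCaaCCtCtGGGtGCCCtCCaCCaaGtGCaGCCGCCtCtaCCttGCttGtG
Atp6ap2 exon 9: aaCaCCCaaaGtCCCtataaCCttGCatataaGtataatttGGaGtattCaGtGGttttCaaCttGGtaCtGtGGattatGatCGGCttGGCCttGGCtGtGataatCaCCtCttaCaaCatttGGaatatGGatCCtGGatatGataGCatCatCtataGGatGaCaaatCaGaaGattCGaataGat

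Expected counts, which estimate how many reads each gene received, summed to 28263730 in library 1 and 20720537 in library 2. The libraries stood apart in other ways. The level in TPM, which corrects a gene's share of the library for transcript length, reached 1 for 9532 genes in library 1 and 13223 in library 2, and mitochondrial genes with their nuclear copies took 74.5% and 36.5% of TPM. The log2 ratio of library 2 over library 1 rose with transcript GC content, from a median of -1.89 over 626 genes below 40% GC to 5.58 over 452 genes at 60% GC or more. Most markers of kidney cells reached TPM 1 in both libraries. All 8 proximal tubule, 4 thick ascending limb, 5 podocyte and 6 endothelium markers did so. In library 1, 3 of 4 collecting duct markers did (Aqp2 had 0.79 TPM). Of the 8 mesangium and mural cell markers, 6 did (Pdgfrb had 0.63 and Des 0.11 TPM). In library 2 all markers of these 2 lists did. By mean TPM, the highest of the proximal tubule list was Miox, which encodes the first enzyme of inositol breakdown (63.5 and 2196 TPM). Podxl was the highest of the podocyte list (23.2 and 84.97 TPM), and Umod that of the thick ascending limb list (381 and 2636 TPM). Median TPM was 57.8 and 425 for the proximal tubule list, 299 and 644 for the thick ascending limb, 6.06 and 88.8 for the collecting duct, 9.47 and 26.04 for podocytes, 7.67 and 28.2 for endothelium, 2.86 and 13.0 for mesangium and mural cells, and 0.75 and 2.61 for leukocytes. Throughout, paired values give library 1 first. Both libraries come from 1 tissue sample, so gaps between the list medians may be technical. Because this is bulk tissue, fewer cells of a type and less RNA per cell cannot be told apart.

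Of the 9 genes, 4 reached TPM 1 in both libraries (Ace, Enpep, Agtr1a and Atp6ap2), Ren1 and Agt did so only in library 2, and Agtr1b, Agtr2 and Mas1 were under TPM 1 in both. With mitochondrial genes and their copies left out of the sum, Ren1 (2.00 TPM) and Agt (3.73 TPM) passed TPM 1 in library 1 too, so that 6 genes did so in each library. By mean TPM the order was Atp6ap2, Ren1, Enpep, Ace, Agtr1a, Agt, Mas1, Agtr2 and Agtr1b. Of the 8 steps between neighbours in this order, only that from Agt to Mas1 separated genes whose values did not overlap over the libraries. The order itself changed, since Atp6ap2 led in library 1 with Ren1 in place 6, and Ren1 led in library 2 with Atp6ap2 in place 2.

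**Figure D1:**
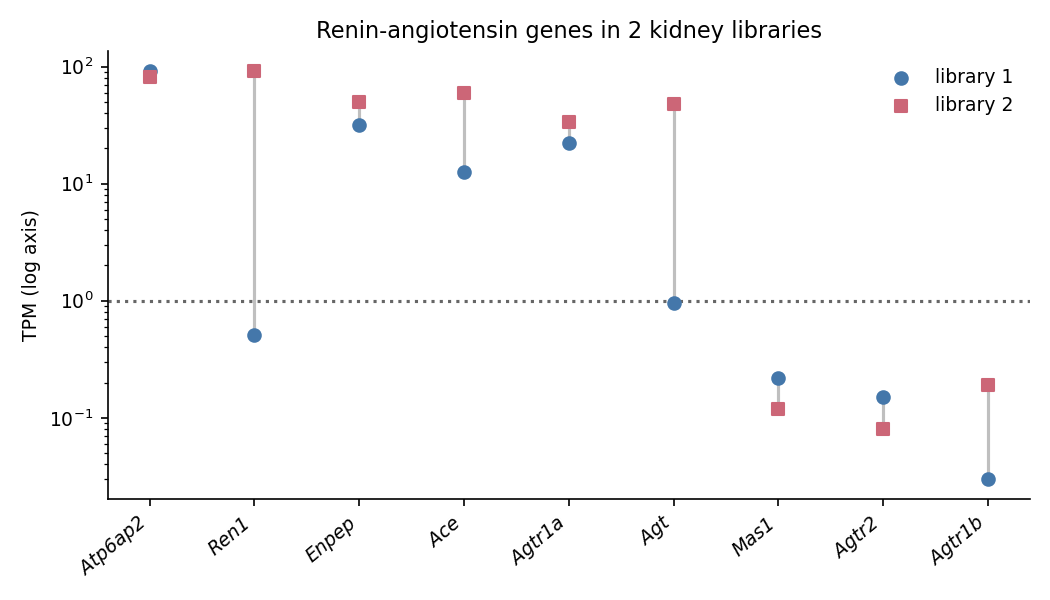
TPM on a log axis of each renin-angiotensin gene in library 1 (circles) and library 2 (squares), ordered by mean TPM, with a grey line joining the 2 libraries and a dotted line at TPM 1. Ren1 and Agt lie on either side of that line, and Mas1, Agtr2 and Agtr1b lie below it in both libraries.

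Counts were scaled by TMM, a method that centres the ratios of most genes, and each gene's split between the libraries was tested with an exact binomial test, two-sided. A call needed both an adjusted p under 0.05 and a ratio of at least 2-fold. This test compares 2 libraries, not conditions, and its intervals cover counting error only. Of the 8 genes with at least 10 counts, 3 were called higher in library 2 (Ren1, Agt and Ace) and 3 higher in library 1 (Atp6ap2, Agtr2 and Mas1). Over all 15553 genes tested, the calls came to 35.7% higher in library 2 and 25.2% in library 1, so calls each way were also common among genes at large. With the smooth trend on GC content removed, 11.4% and 10.9% of 14801 genes were called, and 2 of the renin-angiotensin genes (Ren1 and Agt) were higher in library 2 and 1 (Mas1) in library 1. Scaled by total counts instead, which moves the median log2 ratio of all genes up by 0.90, 49.4% and 4.62% were called, and 3 of the genes were higher in library 2 and 0 in library 1.

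Renin had the widest gap of the 9 genes. Ren1 (ENSMUSG00000070645, chr1:133350510-133360325, plus strand) had 0.51 and 91.4 TPM, a mean of 46.0 ± 64.3 TPM (SD, n = 2 libraries). These values come from 22 counts (exact Poisson 95% interval 13.8 to 33.3) and 2109 counts (2020 to 2201). In library 1 renin thus ranked below most detected genes, above 37.7% of them, and in library 2 above 93.7%. The TMM-scaled count was 69.9 times higher in library 2 (exact 95% interval 46.0 to 112), a log2 ratio of 6.09. The transcript has 54.6% GC, and the expected counts placed all reads on its 1592-base form in both libraries. From the deposited posterior means, at 22 counts, that form had 41.3% in library 1 and a 215-base form 58.7%.

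Renin lay above nearly all genes of 50 to 55% GC in this ratio. Among these 3013 genes, the median log2 ratio was 1.04 and the 90th percentile 2.92, and Ren1 lay above 99.4% of the others. At 54.6% GC, however, Ren1 sits near the upper edge of this class, and the ratio rose with GC content. Among 2242 genes of 55 to 60% GC, the median was 3.51 and the 90th percentile 6.15, just above the 6.09 of Ren1. After the trend value of 2.16 was removed, the log2 ratio of Ren1 was 3.93 with an adjusted p of 1.03e-103 in the exact binomial test. With mitochondrial genes and their copies left out of the sum, Ren1 had 2.00 and 144 TPM. What else moved with the libraries for this gene was not tested. The gene nearest to it in both libraries on log2(TPM + 1) was Tkt, which encodes the pentose phosphate enzyme transketolase, with 0.59 and 94.4 TPM and 54.0% GC, a likeness measured over 2 libraries only.

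Agt, which encodes angiotensinogen, the sole known renin substrate, was also under TPM 1 in library 1, above 45.5% of the genes detected there. Agt (ENSMUSG00000031980, chr8:124556534-124569706, minus strand) had 0.95 and 47.5 TPM from 50 and 1330 counts, a mean of 24.2 ± 32.9 TPM (SD, n = 2 libraries). Library 2 was higher by 19.4-fold (exact 95% interval 14.6 to 26.3; log2 ratio 4.26, adjusted p 1.57e-242). The transcript has 56.3% GC, and Agt lay above 65.2% of the other genes of 55 to 60% GC, whose median log2 ratio was 3.51. With the trend of 3.09 removed, the log2 ratio of Agt was 1.18 (adjusted p 5.15e-10, exact binomial test), still called.

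Renin and its substrate changed order between the libraries. The TPM of Ren1 was 0.537 times that of Agt in library 1 and 1.92 times in library 2. Liver and fat are the best known sources of angiotensinogen outside the kidney. The 8 liver markers summed to 10.9 and 65.7 TPM, and the 5 fat markers to 24.6 and 104 TPM. The liver markers did not move as one: Ttr, a thyroid hormone carrier and the highest by mean TPM, had 2.49 and 31.6 TPM and Apoa2 0.97 and 12.6 TPM, both called higher in library 2, while Alb, the albumin gene, had 3.55 and 7.05 TPM (log2 ratio -0.37, not called) and Fgb, a fibrinogen gene, 1.24 and 2.05 TPM (-0.63, not called). Apoh had 0.12 and 0.06 TPM, and Ahsg had 3 counts and 0 counts. The fat markers did not move as one either. Cfd had 2 and 301 counts (log2 ratio 6.46) and Plin1 0 and 33 counts, both called higher in library 2. Fabp4, which capillary endothelium also makes, had 23.0 and 72.7 TPM (0.21, not called). Adipoq had 1.56 and 5.02 TPM (0.32, not called), and Lep, the leptin gene, stayed at 0.01 and 0.06 TPM. With the GC trend removed, Cfd (2.30) and Fabp4 (1.88) were called higher in library 2, and Plin1 and Adipoq were not called. Of the liver genes, Ttr (3.02) and Apoa2 (1.34) then stayed called, and Apoa1, called higher in library 2 before (2.46), was not called (-0.91). At TMM scaling alone, 3 of 6 liver genes and 2 of 4 fat genes tested were called higher in library 2, and 0 in library 1. Over all genes tested, 35.7% were called higher in library 2 and 25.2% in library 1. The part of these markers in the ratio of Agt was not tested.

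**Figure D2:**
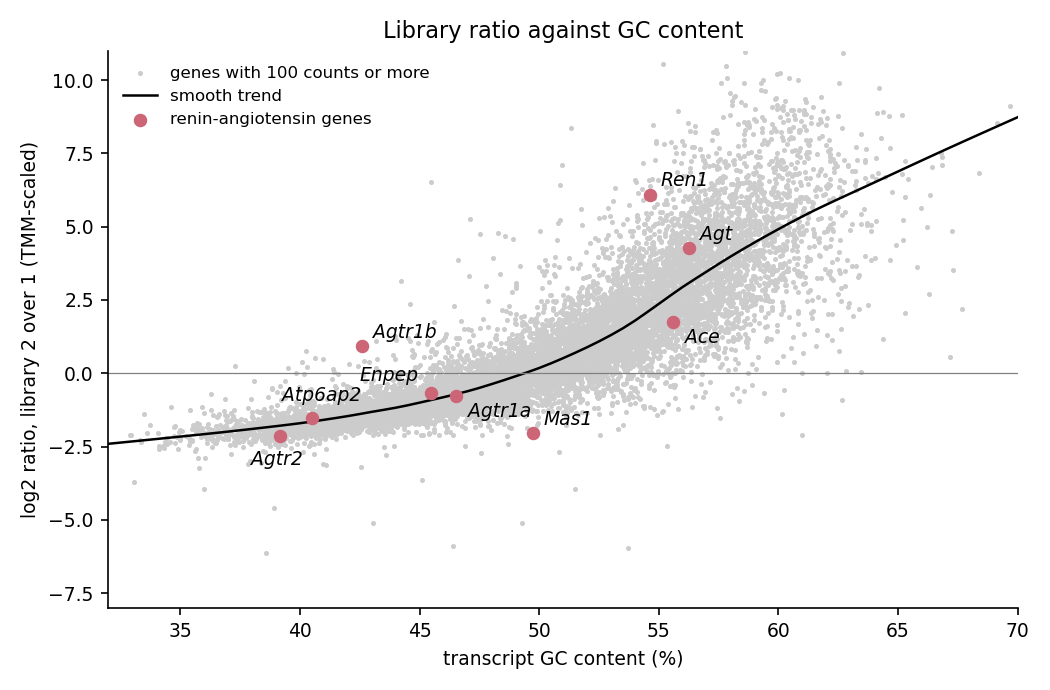
Log2 ratio of library 2 over library 1 after TMM scaling against transcript GC content, with a grey point for each gene of 100 counts or more, the smooth trend as a black line, and the renin-angiotensin genes in red. Ren1 lies above the trend, in the upper part of the cloud at its GC content. Ace lies under the trend, and Enpep, Agtr1a and Atp6ap2 lie near it. Agtr1b, with 8 counts in all, was not tested, and points outside the plotted range are not shown.

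Ace, the enzyme that makes angiotensin II, was detected well in both libraries. Ace (ENSMUSG00000020681, chr11:105967945-105989964, plus strand) had 12.6 and 59.7 TPM from 936 and 4307 counts, a mean of 36.2 ± 33.3 TPM (SD, n = 2 libraries). Library 2 was higher by 3.35-fold after TMM scaling (exact 95% interval 3.12 to 3.60; log2 ratio 1.75), but the sign turned to -0.96, not called, once the GC trend of 2.71 was removed. At 55.6% GC, Ace lay above only 14.5% of the other genes of 55 to 60% GC. The nearest gene was Wdr1, an actin-disassembly cofactor, with 12.9 and 60.2 TPM. This likeness depends on the transcript assignment of Ace reads given below.

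The reads of Ace were assigned to different transcripts in the 2 libraries. The somatic transcript of 4906 bases and 25 exons took 7.5% of the gene's TPM in library 1 and 73.2% in library 2, with 137 and 3397 expected counts. The germinal transcript of 2418 bases and 14 exons took 92.5% and 0%, with 799 and 0 expected counts. Another coding transcript of 3649 bases took 0% and 26.8%, with 0 and 911 expected counts. Thus the form annotated for the testis led in library 1, and the 2 longer forms held all assigned Ace reads in library 2.

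Scaled by TMM, the estimate for the somatic transcript was 18.0-fold higher in library 2. Such shares are estimates from short reads over largely shared exons, so a share of 0 does not show that no read of that form was present, and no fold is given for the other forms. Shares from the deposited posterior means were 91.4% and 1.3% for the germinal form and 0.43% and 26.1% for the 3649-base form. The 4 testis markers, Prm1, Prm2, Tnp1 and Acrv1, which are made in maturing sperm cells, had 0 counts in both libraries.

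The parts of Ace that tell the somatic and germinal forms apart differ in base composition. The 12 upstream exons of the somatic transcript, absent from the germinal one, hold 1973 bases of 58.0% GC. The 2222 bases shared with the germinal transcript have 54.3% GC. The last 711 bases of the somatic transcript, again absent from the germinal one, have 53.0% GC. These parts were not compared with the 3649-base form, which has 20 exons and starts within the upstream stretch. Over 300-base windows of the somatic transcript, GC content ran from 46.0% to 68.7%, and the highest window lay at its start, in the exon 1 printed above. The lowest fell in the shared part. Coverage by exon was not analysed here, so the part of composition in the assignment was not tested.

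**Figure D3:**
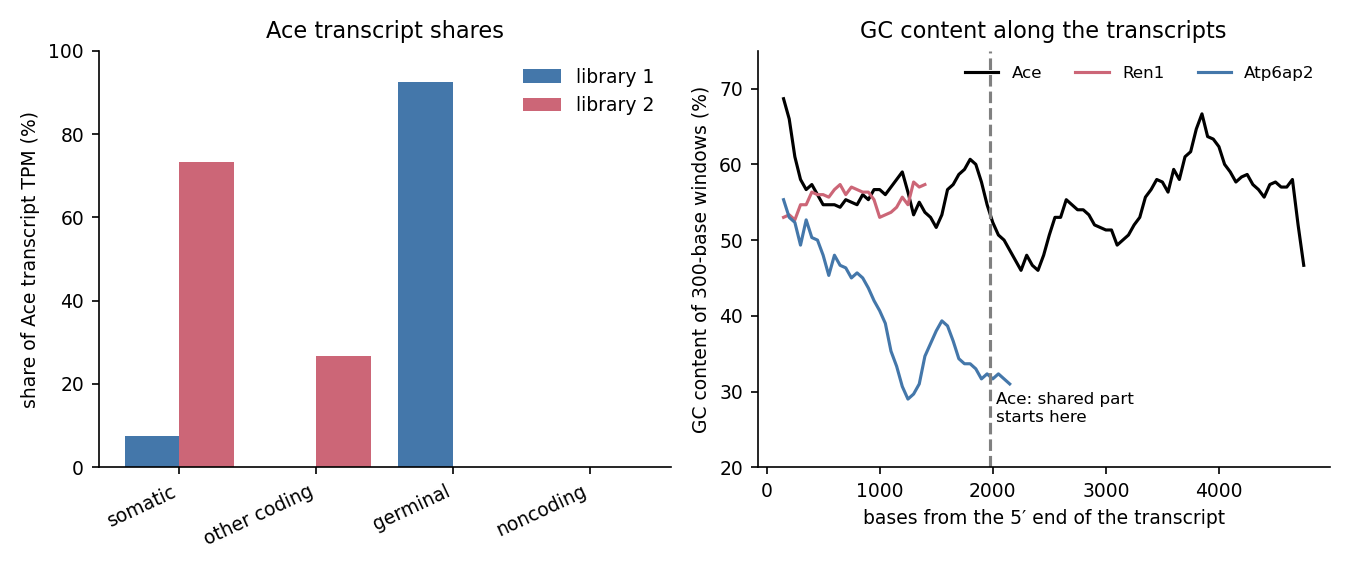
Left, share of each annotated Ace transcript in the gene's TPM in library 1 (blue) and library 2 (red), where the germinal form had 92.5% in library 1 and 0% in library 2. Right, GC content in 300-base windows along the somatic Ace transcript and the leading Ren1 and Atp6ap2 transcripts from the 5′ end, with a dashed line where the part of Ace shared by the somatic and germinal forms begins.

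A change of the leading transcript was common among all genes. Of 6040 genes with several transcripts and at least 100 counts in both libraries, 30.3% had a different transcript of highest share in each library, and the median of the largest shift in share was 18.9 percentage points. The shift of 92.5 points in Ace was reached by 91 of these genes (1.51%). Among the 4 renin-angiotensin genes in this comparison only Ace changed its leading transcript, and the largest shifts were 2.28 points in Enpep, 0.88 in Agtr1a and 0.07 in Atp6ap2.

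Enpep encodes aminopeptidase A, a brush border enzyme that removes the first residue of angiotensin II to give angiotensin III. Enpep (ENSMUSG00000028024, chr3:129269175-129332720, minus strand) had 31.7 and 49.8 TPM from 3812 and 3255 counts, a mean of 40.7 ± 12.8 TPM (SD, n = 2 libraries). The ratio after TMM scaling was 0.622 (exact 95% interval 0.594 to 0.652; log2 ratio -0.68), short of 2-fold and not called, and its sign turned under total counts (0.22) and with the GC trend removed (0.23). Enpep thus stood above Ace in library 1, at 2.52 times its TPM, and below it in library 2, at 0.834 times. These proportions depend on the assignment of Ace reads to transcripts of unlike length, since TPM corrects for length. The nearest gene to Enpep was Ik, a splicing factor gene, with 31.3 and 50 TPM.

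Agtr1a, the main AT1 receptor gene of the mouse kidney, had the smallest TMM-scaled difference after Enpep among the 8 renin-angiotensin genes tested. Agtr1a (ENSMUSG00000049115, chr13:30336441-30382867, plus strand) had 22.2 and 33.8 TPM from 1375 and 1110 counts, a mean of 28.0 ± 8.22 TPM (SD, n = 2 libraries). The TMM-scaled ratio was 0.589 (exact 95% interval 0.543 to 0.637; log2 ratio -0.76), not called, and the sign turned to 0.14 under total counts. With the GC trend removed the log2 ratio was -0.05 (adjusted p 0.503, exact binomial test). The TPM of Enpep was 1.43 and 1.47 times that of Agtr1a, so these genes kept nearly the same proportion in both libraries. The nearest gene to Agtr1a was Tmem183a, with 21.7 and 33.3 TPM.

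Almost all AT1 receptor reads belonged to Agtr1a. Agtr1b (ENSMUSG00000054988, chr3:20314473-20367177, minus strand) had 0.03 and 0.19 TPM from 2 and 6 counts, too few for the test, and a TMM-scaled ratio of 2.19 (exact 95% interval 0.391 to 22.2). Agtr1b made up 0.145% of the AT1 receptor counts in library 1 (exact Clopper-Pearson 95% interval 0.0176 to 0.524) and 0.538% in library 2 (0.198 to 1.17), and the intervals overlap. The TPM of Agtr1a was 740 times that of Agtr1b in library 1 and 178 times in library 2.

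The coding sequences of the receptor pair are alike enough that a few reads could be placed on the wrong gene. They have 1077 bases each without the stop codon, differ at 99 of them (90.8% identity) and share a longest run of 66 bases without a difference. The window of 120 coding bases with the most differences, near the end of the receptor, is shown on the coding strand of each gene (Agtr1a, chr13:30381901-30382020; Agtr1b, chr3:20315374-20315493), with the 22 differing bases in capitals.
Agtr1a: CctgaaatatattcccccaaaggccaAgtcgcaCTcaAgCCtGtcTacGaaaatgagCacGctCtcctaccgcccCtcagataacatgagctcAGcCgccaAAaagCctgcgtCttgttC
Agtr1b: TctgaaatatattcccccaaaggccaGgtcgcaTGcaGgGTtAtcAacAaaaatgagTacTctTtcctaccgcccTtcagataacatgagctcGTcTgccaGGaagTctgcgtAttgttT
A read over this stretch differs between the genes, while one within an unbroken shared run does not, and the few Agtr1b counts are uncertain. Summing both genes changed the number of calls in neither direction.

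The other angiotensin receptors were near the limit of detection. Agtr2 (ENSMUSG00000068122, chrX:21484544-21489164, plus strand), which encodes the AT2 receptor, often opposed to AT1 in its effects, had 0.15 and 0.08 TPM from 14 and 4 counts. The ratio was 0.208 (exact 95% interval 0.0499 to 0.663; log2 ratio -2.14, adjusted p 0.00400), called higher in library 1, but it was not called under total counts (-1.24) or with the GC trend removed (-0.36). Mas1 (ENSMUSG00000068037, chr17:12841079-12868143, minus strand), which encodes a receptor for a shorter angiotensin peptide, had 0.22 and 0.12 TPM from 10 and 3 counts. Its ratio was 0.219 (exact 95% interval 0.0387 to 0.849; log2 ratio -2.04, adjusted p 0.0251), and it was called with the GC trend removed (-2.15, adjusted p 0.0187) but not under total counts (-1.14). The antisense transcript Airn overlaps Mas1 and had 46 and 54 counts, and without a stated strand setting reads of such a pair cannot be told apart. Against these receptors Agtr1a was far more abundant, at 148 and 423 times the TPM of Agtr2 and 101 and 282 times that of Mas1.

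Atp6ap2 encodes the (pro)renin receptor, which also serves as an accessory subunit of the vacuolar proton pump, the V-ATPase. Atp6ap2 (ENSMUSG00000031007, chrX:12587801-12617049, plus strand) had 91.5 and 81.7 TPM from 6019 and 2870 counts, the narrowest spread relative to its mean among the 9 genes at 86.6 ± 6.92 TPM (SD, n = 2 libraries). The scaled counts nevertheless differed: the ratio was 0.348 (exact 95% interval 0.332 to 0.363; log2 ratio -1.52), called higher in library 1. It was -0.62 and not called under total counts, and 0.12 with the GC trend removed. The transcript has 40.5% GC, among genes of 40 to 45% GC with a median log2 ratio of -1.36. Its TPM ratio was 0.893 as deposited and 0.358 with mitochondrial genes and their copies left out of both libraries. The nearest gene was Psmc6, a proteasome subunit gene, with 93.9 and 82.1 TPM. A pseudogene, Gm36448, matches 438 bases of Atp6ap2 at 98.4% identity and was not analysed here.

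**Figure D4:**
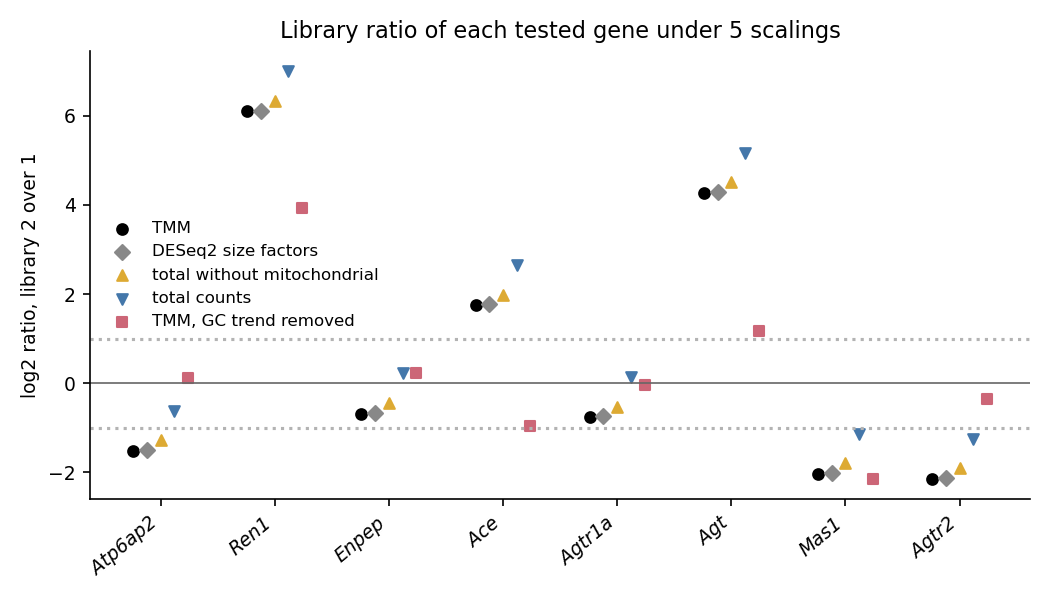
Log2 ratio of library 2 over library 1 for the 8 renin-angiotensin genes tested, under TMM scaling (black), DESeq2 size factors (grey), total counts without mitochondrial genes and copies (yellow), total counts (blue) and TMM with the GC trend removed (red), with dotted lines at a 2-fold ratio. Ren1 and Agt stay above 0 under all 5, Mas1 and Agtr2 below 0, and Ace, Enpep, Agtr1a and Atp6ap2 cross it under at least 1.

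Other genes of the pathway were examined through 6 lists of 80 genes. The list counts below stand beside shares of 35.7% called higher in library 2 and 25.2% in library 1 over all genes tested. With the GC trend removed these shares were 11.4% and 10.9%, and under total counts 49.4% and 4.62%. Genes without a known GC content were not tested with the trend removed. Of the 16 other peptidases that make or degrade angiotensins, 14 were tested, with 6 calls toward library 2 and 4 toward library 1 and a median log2 ratio of 0.73 against 0.12 over all genes tested. The highest by mean TPM, which library 2 weighs most, were cathepsins of the lysosome: Ctsd, an aspartyl protease like renin, had 20.1 and 424 TPM, Ctsb had 37.6 and 189 TPM and Ctsa had 13.1 and 182 TPM. In library 1 alone, Mme and Dpp4 (106 and 42.3 TPM) stood above all 3. Among the enzymes that degrade angiotensins, Dpp3 had 0.12 and 23.5 TPM (log2 ratio 6.21), and Thop1 had 0 and 347 counts, at least 84.3-fold higher in library 2. Both were called higher in library 2, also with the GC trend removed.

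The largest ratios in the other direction were those of Mme, which encodes neprilysin of the brush border (106 and 82.8 TPM, log2 ratio -1.90), and Lnpep, the angiotensin IV-binding aminopeptidase (19.2 and 15.6 TPM, -1.67). Cma1 and Ctsg, by contrast, were barely detected, with 1 and 1 count for Cma1 and 0 counts in both libraries for Ctsg. Further mast cell protease genes were not examined. Under total counts 8 genes of this list were higher in library 2 and 0 in library 1. With the GC trend removed 3 were higher in library 2 (Thop1, Dpp3 and Ctsb) and 1 in library 1. The latter was Rnpep, which turned from 1.45, called higher in library 2, to -1.79. Ctsd (0.73), Ctsa (0.54) and Mme (0.0034) were then not called, and Lnpep, without a known GC content, was not tested.

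Of the 9 genes for related receptors and receptor partners, 6 were tested, 4 were called higher in library 2 and 1 in library 1 (median log2 ratio 2.38). The G protein subunits that couple the AT1 receptor to phospholipase C differed from each other: Gna11 had 0.63 and 36.3 TPM (log2 ratio 4.73) and Gnaq 13.02 and 16.7 TPM (-1.05). Agtrap, which encodes a protein that binds the AT1 receptor tail and favours its internalization, had 4.25 and 27.7 TPM (1.34), and Arrb2, the beta-arrestin 2 gene, 0.29 and 7.82 TPM (3.87). Mrgprd and the bradykinin receptor gene Bdkrb1 had 0 counts in both libraries, and Bdkrb2 had 0 and 4. Removal of the GC trend gave 2 genes higher in library 2 and 0 in library 1, and total counts gave 4 and 0.

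Genes of the renin cell and of renin control are of interest beside Ren1. Of 20 such genes, all were tested, with 10 calls toward library 2, 5 toward library 1 and a median log2 ratio of 1.05. The highest by mean TPM were Vdr, the vitamin D receptor, a known repressor of renin (20.5 and 87.1 TPM, log2 ratio 0.67, not called), the pericyte gene Rgs5 (43.2 and 32.6 TPM, -1.77) and Nr2f2, a nuclear receptor gene (33.4 and 33.8 TPM, -1.61). The largest ratios in the direction of library 2 were those of Gja4, a vascular connexin gene (0 and 95 counts, at least 23.1-fold higher), and Cspg4, a pericyte proteoglycan gene (7 and 490 counts, 5.58). With the GC trend removed, neither Gja4 nor Cspg4 was called. Then 1 gene, Akr1b7 (0.92 and 4.68 TPM, log2 ratio 1.13), was higher in library 2, and 3 genes, Nfix, Adcy5 and Npr1, were higher in library 1. Under total counts the calls were 13 and 0. The 8 markers of mesangium and mural cells summed to 62.2 and 196 TPM, and their part in the ratio of Ren1 was not tested.

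**Figure D5:**
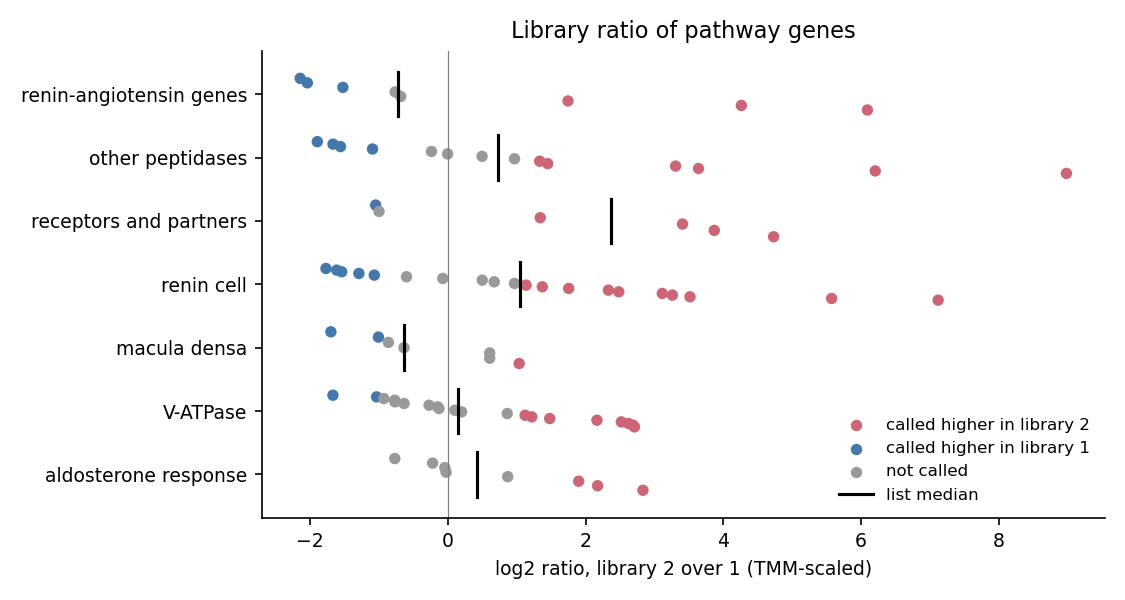
Log2 ratio of library 2 over library 1 after TMM scaling for each tested gene of the renin-angiotensin set and of the 6 pathway lists, coloured by call, with a black bar at each list's median. The medians run from -0.72 in the renin-angiotensin genes to 2.38 in the receptors and partners.

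The macula densa, the tubule segment that signals salt load to the renin cells, was represented by 7 genes, with 1 call toward library 2 and 2 toward library 1 (median log2 ratio -0.64). Slc12a1, the sodium-potassium-chloride cotransporter that senses the load, had 400 and 568 TPM (log2 ratio -0.86, not called). It is also among the thick ascending limb markers, so in bulk tissue its level is not specific to the macula densa. Ptges, a prostaglandin E synthase gene, had 2.85 and 17.2 TPM (1.04), and Avpr1a, a vasopressin receptor gene, 6.00 and 7.66 TPM (-1.01). The other 4 genes, Nos1, Ptgs2, Oxtr and Pappa2, were under TPM 1 in both libraries. After removal of the GC trend 0 genes were higher in library 2 and 2 in library 1 (Avpr1a, and Nos1 in place of Ptgs2), and total counts gave 2 and 0.

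All 20 V-ATPase subunit genes, the partners of Atp6ap2, reached TPM 1 in both libraries. Calls toward library 2 numbered 8 and toward library 1 numbered 2, and the median log2 ratio was 0.15. The membrane ring subunit Atp6v0c had 29.9 and 519 TPM (log2 ratio 2.71, but -0.26 and not called with the GC trend removed), the stalk subunits Atp6v1e1 122 and 288 TPM (-0.13, not called) and Atp6v1g1 136 and 225 TPM (-0.64, not called), and Atp6v1f 18.4 and 305 TPM (2.69). Like Atp6ap2, the catalytic subunit Atp6v1a (155 and 200 TPM, -1.03) and Atp6v0d2 (32.1 and 25.9 TPM, -1.67) were called higher in library 1. With the GC trend removed 3 were higher in library 2 and 0 in library 1, and under total counts 11 and 0.

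Aldosterone, the adrenal steroid released by angiotensin II, acts on the distal nephron. Of 8 genes of its response, 3 were called higher in library 2 and 0 in library 1 at TMM scaling (median log2 ratio 0.42). Sgk1, an aldosterone-induced kinase, had 39.2 and 90.6 TPM (log2 ratio -0.22, not called), Hsd11b2, which protects the receptor from glucocorticoids, 9.60 and 112 TPM (2.18, but -1.69 and called higher in library 1 with the GC trend removed), and Scnn1a, a subunit of the epithelial sodium channel, 4.17 and 57.1 TPM (2.83). After removal of the GC trend 0 genes were higher in library 2 and 1, Hsd11b2, in library 1, and total counts gave 4 and 0. The adrenal cortex itself was hardly sampled: its 6 markers were all under TPM 1 in both libraries and summed to 0.49 and 1.60 TPM, and Cyp11b2, the aldosterone synthase gene, had 0 counts in both, which allows up to 3 counts in each.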

How the data were processed

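Gene and transcript tables of 2 libraries of 1 kidney sample were used, made on mm10 with annotation release M4 per the text deposited beside them. Which aligner, quantifier and strand setting made them was not given in the sources used here. Expected counts per gene were deposited as raw estimates, per the file headers, beside posterior mean counts. TPM values were deposited as length-corrected shares scaled to the same sum, and transcript shares within a gene as a percent, per the file headers. Per the labels, a QIAGEN RNeasy kit for lipid-rich tissue gave the RNA.

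Symbols, coordinates and exons were taken from GENCODE release M21 (mm10), which matched 98.0% of 43346 gene rows by identifier, and the 29 transcripts of the 9 genes had the same lengths there. All printed sequences are read from that genome. The 26345 spike-in and short RNA rows held 0 counts and were left out. Expected counts were rounded and scaled by TMM (edgeR 4.0.16). With 1 library a side no quasi-likelihood fit exists, so an exact conditional binomial test (scipy 1.17.1) was applied to genes of 10 counts or more, adjusted by Benjamini-Hochberg over 15553 genes, and called at an adjusted p under 0.05 and a log2 ratio of at least 1 with a prior count of 0.5. On counts simulated from these libraries with 15558 genes tested, 100 of 100 genes altered 3-fold and 100 of 100 altered 8-fold were recovered, and 1 of 15358 others was called, with counting error as the only noise. A lowess curve (statsmodels 0.14.6, span 20%) gave the GC trend on 11508 genes of at least 100 counts, with GC content known for 95.5% of such genes. Mitochondrial copies were nuclear genes matching a mitochondrial gene at 95% identity over 80% of their length (blastn 2.17.0), 11 in all.

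The 9 genes, the 6 pathway lists and the 11 marker lists were chosen with earlier results of these data known. Named were all 9 genes, the nearest protein-coding gene of each that reached TPM 1, and from each pathway list the 3 most abundant genes, genes at 0 counts in a library, and the 2 largest called ratios each way at a mean TPM of 1 or more. Alternatives were other scalings (total counts, DESeq2 1.42.0 size factors, totals without mitochondrial genes), count minimums, prior count, posterior means, removal of the GC trend and leaving out each library.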

Additional observations from a re-analysis of the deposited data

How the results depend on the processing

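The number of renin-angiotensin genes called higher in library 2, 3 in all, was 3 under each other scaling and count minimum tried, with posterior means and by adjusted p alone, and 2 with the GC trend removed. The number called higher in library 1 was 3, and became 0 under total counts (1 at an unadjusted p under 0.05, exact binomial test; 3 with DESeq2 size factors), 1 with a count minimum of 100 (fewer genes tested), 1 with the GC trend removed and 5 by adjusted p alone, without the 2-fold limit. Of the 80 pathway list genes, tested or not, calls toward library 2 numbered 32 and toward library 1 numbered 14, beside 35.7% and 25.2% of all genes tested. With the GC trend removed the list calls were 9 and 7, beside 11.4% and 10.9% of all genes tested. List genes without a known GC content, such as Lnpep and Acta2, were not tested then and so could not be called. Under total counts the number of list genes higher in library 1 was 0, beside 4.62% of all genes tested. It was 12 at an unadjusted p under 0.05 (exact binomial test), and 13 with DESeq2 size factors. The sign of the log2 ratio turned with the GC trend removed for Ace (-0.96), Enpep (0.23) and Atp6ap2 (0.12), and under total counts for Agtr1a (0.14) and Enpep (0.22). Mas1 was not called with mitochondrial genes left out of the totals (-1.80). The alternatives' own construction moves the ratios, by base composition in one case and by the share of all reads in the other, and no further cause was tested. The mean TPM of Ren1 was 91.4 without replicate 1 and 0.51 without replicate 2, and that of Agt 47.5 and 0.95, so 1 library decided both means. Leaving mitochondrial genes and copies out raised the mean TPM of Atp6ap2 to 244, of Enpep to 101, of Ace to 71.7 and of Agtr1a to 70.2. Depth limits Agtr1b, Agtr2 and Mas1, with 14 counts or fewer in each library. No paired analysis was possible because the 2 libraries form 1 group.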
